A study of Arabidopsis thaliana with 24 samples.

Results

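The JAZ (JASMONATE ZIM-DOMAIN) genes of Arabidopsis thaliana encode repressors of jasmonate signalling. The 10 genes described here were picked by their locus identifiers out of 33245 genes in the count tables, with earlier results of these data known. They are JAZ1 (AT1G19180), JAZ2 (AT1G74950), JAZ3 (AT3G17860), JAZ5 (AT1G17380), JAZ6 (AT1G72450), JAZ7 (AT2G34600), JAZ8 (AT1G30135), JAZ9 (AT1G70700), JAZ10 (AT5G13220) and JAZ12 (AT5G20900). All 10 were among the 20995 genes that passed the filter on low counts and were tested.

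In the absence of hormone, a JAZ protein binds MYC transcription factors through its Jas motif and brings in the co-repressor TOPLESS, either through the adaptor NINJA or through an EAR motif of its own. When jasmonoyl-isoleucine, the active hormone, accumulates after wounding, it joins the F-box receptor COI1 to the JAZ protein, which is then ubiquitinated and degraded. The released MYC factors switch on defence genes and also most JAZ genes, so that JAZ transcripts rise early in a jasmonate response and the new repressor limits that response.

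Polyadenylated RNA of seedlings was sequenced for 4 genotypes and 2 treatments, with 3 libraries in each of the 8 groups. Wild-type Col-0 plants were set beside mutants carrying p2k1-3, bdg-8, or both alleles together (the double mutant), all after mock treatment or after 30 min with 150 µM ATP. P2K1 is the plasma membrane receptor kinase through which plants perceive ATP outside the cell, a molecule that leaks out of damaged cells, and BDG1 is an epidermal protein of the hydrolase fold family required to build the cuticle. The comparisons ask how p2k1-3, bdg-8 or both together alter the response to ATP. The labels give neither the age of the seedlings nor the nature of either allele, and they do not say whether replicates came from separate cultures, so the spread behind every p-value is that of the libraries and may be technical.

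Libraries held 25856588 to 35239775 counts in genes. Transcript of the mutated genes remained in the mutants. P2K1 stood at 20.9, 21 and 22.4 CPM (each library's counts scaled to a common total) in Col-0 mock and at 11.9, 13.2 and 11.4 in p2k1-3 mock. BDG1 stood at 24.8, 25.6 and 25.6 CPM in Col-0 mock, at 16.1, 12.7 and 13.7 in bdg-8 mock, and at 116, 96.4 and 109 in bdg-8 with ATP. Green tissue, root hair, root endodermis and shoot epidermis markers were found in every group, and no marker was at 0. In all 8 groups, replicate 3 was closer to both other replicates than these were to each other. The SD over genes of the log2 difference was 0.288 to 0.313 between replicates 1 and 2, and 0.235 to 0.264 between replicate 3 and either of them. The deviations of replicates 1 and 2 from their group mean correlated over genes at -0.707 to -0.595. When the log2 CPM of replicate 3 was written as a weighted mean of both others, replicate 1 had a weight of 0.445 to 0.538, and its weight was 0.206 to 0.389 when replicate 2 was written so from replicates 1 and 3. For the members, replicate 3 lay between replicates 1 and 2 in 44 of 80 cases of a gene in a group (55%), beside 45.3% over all tested genes. A negative correlation would also arise from 3 independent replicates of equal spread. Such replicates would give near equal weights whichever replicate was written from both others. Here the weights were near equal for replicate 3 and unequal for replicate 2. How far these values depart from those of such replicates was not tested. Whether replicate 3 is an independent sample was not tested. Every n of 3, SE and p-value here counts it as one, so they hold only if it is. Counts of members called are therefore given with all libraries and again without replicate 3 of any group, a setting that also has fewer libraries. Counts of marker genes are given with all libraries alone.

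The upstream sequences of 6 members are shown because these genes had high responses to ATP or a response that depended on genotype, and because elements that the jasmonate and calcium pathways are known to use fall in them. They are the 250 bases before the annotated gene start in the RefSeq TAIR10.1 genome, read 5′ to 3′ on the strand of the gene. The count tables carry no coordinates, so positions come from the RefSeq annotation by locus identifier. Capitals mark a G-box (CACGTG, a palindrome that MYC factors bind), its variant CACATG or its complement CATGTG, or the core CGCGT or its complement ACGCG, the element bound by calmodulin-binding CAMTA factors. JAZ2 is read from chr1:28150447-28150696 on the minus strand and JAZ5 from chr1:5957512-5957761 on the minus strand. JAZ3 is read from chr3:6119457-6119706, JAZ7 from chr2:14572780-14573029, JAZ8 from chr1:10596102-10596351 and JAZ10 from chr5:4218536-4218785, all on the plus strand.
JAZ2: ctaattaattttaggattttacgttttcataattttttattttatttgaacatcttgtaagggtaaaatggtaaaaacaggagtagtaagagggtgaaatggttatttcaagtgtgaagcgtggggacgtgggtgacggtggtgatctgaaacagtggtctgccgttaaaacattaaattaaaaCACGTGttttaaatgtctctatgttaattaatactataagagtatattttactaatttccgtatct
JAZ3: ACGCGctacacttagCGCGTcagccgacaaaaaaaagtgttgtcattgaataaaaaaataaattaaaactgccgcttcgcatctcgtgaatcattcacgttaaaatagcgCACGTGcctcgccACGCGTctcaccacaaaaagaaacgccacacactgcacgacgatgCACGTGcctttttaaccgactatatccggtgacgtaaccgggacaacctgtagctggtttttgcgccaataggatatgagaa
JAZ5: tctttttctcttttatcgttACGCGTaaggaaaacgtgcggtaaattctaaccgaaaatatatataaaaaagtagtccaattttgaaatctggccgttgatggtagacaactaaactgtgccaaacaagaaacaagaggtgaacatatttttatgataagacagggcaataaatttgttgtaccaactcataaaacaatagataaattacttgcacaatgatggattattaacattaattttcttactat
JAZ7: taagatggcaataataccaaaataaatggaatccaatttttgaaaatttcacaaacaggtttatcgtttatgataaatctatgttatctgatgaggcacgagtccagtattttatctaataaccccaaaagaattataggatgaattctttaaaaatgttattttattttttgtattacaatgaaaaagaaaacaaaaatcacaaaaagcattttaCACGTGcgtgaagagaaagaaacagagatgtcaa
JAZ8: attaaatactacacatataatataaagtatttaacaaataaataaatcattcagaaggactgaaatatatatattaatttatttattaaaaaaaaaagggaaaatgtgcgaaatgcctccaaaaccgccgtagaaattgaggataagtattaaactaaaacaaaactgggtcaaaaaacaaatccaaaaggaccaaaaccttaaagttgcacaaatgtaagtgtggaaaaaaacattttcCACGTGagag
JAZ10: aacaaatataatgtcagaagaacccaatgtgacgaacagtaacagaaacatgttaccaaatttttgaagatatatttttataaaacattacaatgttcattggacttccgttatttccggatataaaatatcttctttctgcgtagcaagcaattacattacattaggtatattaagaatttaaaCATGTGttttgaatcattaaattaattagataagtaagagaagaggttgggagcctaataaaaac

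In JAZ5 the capitals ACGCGT hold the CAMTA core on both strands, 230 to 225 bases before the gene start. JAZ3 holds that core 250 to 246, 235 to 231 and 127 to 122 bases before its start, the last on both strands, and the G-box 140 to 135 and 82 to 77 bases before it. The G-box lies 66 to 61 bases before the start of JAZ2, 34 to 29 before JAZ7 and 10 to 5 before JAZ8. The G-box variant of JAZ10 lies 65 to 60 bases before its start. Searching both strands of the same window in 9 members, all but JAZ1, the G-box was found in 4 (JAZ2, JAZ3, JAZ7 and JAZ8), the variant in 2 (JAZ9 and JAZ10) and the CAMTA core in 2 (JAZ3 and JAZ5). Among 20885 windows of that length, 7.18% held the G-box, 11.2% the variant and 7.37% the CAMTA core. The core TTGAC of WRKY binding elements, or its complement GTCAA, was found in 4 of the 9 (JAZ6, JAZ7, JAZ8 and JAZ12) and in 45.1% of windows, overlapping none of the other elements in the members. These matches describe letters in a window and not binding.

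Levels of different members were compared per length, as CPM divided by the median annotated transcript length in kb. In Col-0 mock, JAZ12 (23.9 ± 0.798 CPM per kb, SD, n = 3) and JAZ6 (21.3 ± 0.718) were the most abundant members. JAZ1 (16.4 ± 2.9), JAZ2 (14.8 ± 1.07), JAZ9 (14.2 ± 2.3) and JAZ3 (8.42 ± 1.01) followed, and the first 3 of these did not differ beyond their spread. JAZ10 (1.82 ± 0.15), JAZ5 (0.863 ± 0.086), JAZ7 (0.316 ± 0.0816) and JAZ8 (0.182 ± 0.0515) were scarce. The order changed with ATP, as the plot of summed levels shows. JAZ1 rose to 75 ± 4.14 CPM per kb in Col-0, and its share of the summed level of the 10 members went from 16 ± 1.82% to 37.9 ± 1.94%. With ATP the share of JAZ1 was 29.4 ± 2.63% in p2k1-3, 47.8 ± 1.4% in bdg-8 and 46.8 ± 1.04% in the double mutant. The share of JAZ12, whose own level per length stayed between 20.8 and 23.9 in all 8 group means, went the other way, from 23.5 ± 2.03% to 11.8 ± 1.08% in Col-0 and from 19.4 ± 0.488% to 6.06 ± 0.552% in bdg-8.

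**Figure D1:**
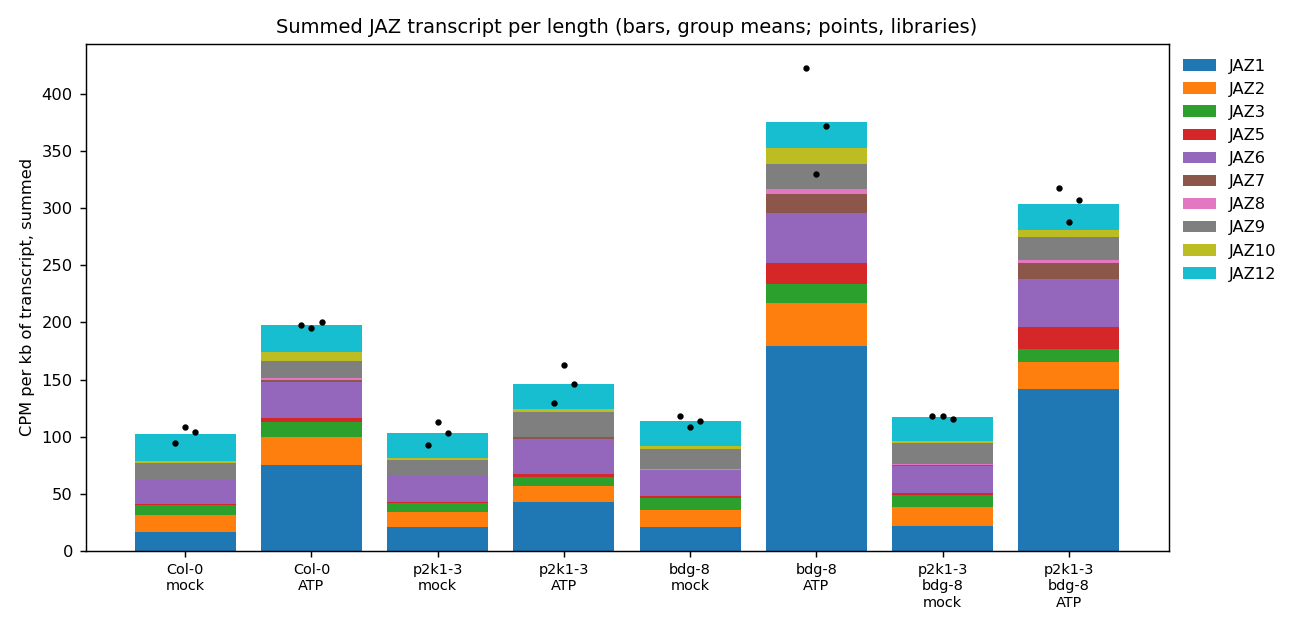
Summed transcript level of the 10 JAZ genes in CPM per kb of transcript for the 8 groups; stacked bars are group means by gene and points are the 3 libraries of a group. The sum was 102 ± 6.87 (SD, n = 3) in Col-0 mock and 198 ± 2.26 with ATP, 103 ± 10 and 146 ± 16.8 in p2k1-3, 113 ± 4.99 and 375 ± 46.5 in bdg-8, and 117 ± 1.96 and 304 ± 15.5 in the double mutant.

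ATP raised most JAZ transcripts within 30 min in every genotype. In Col-0, 8 of the 10 members were called higher and none lower (edgeR's quasi-likelihood test, adjusted p under 0.05 over all genes tested), against 21.8% of all tested genes called in either direction and 13.2% called higher and 8.67% lower. In p2k1-3, 7 members were called higher and none lower (20.4% of all genes called, 11.9% higher and 8.53% lower). In bdg-8 there were 8 higher and none lower (36.3% of all genes called, 18.7% higher), and in the double mutant 7 higher and none lower (33.7% of all genes called, 17.1% higher). The median log2 fold change of the members was 1.47 in Col-0, 0.64 in p2k1-3, 1.92 in bdg-8 and 1.09 in the double mutant, beside medians over all tested genes of -0.01, -0.01, -0.02 and -0.02. Without replicate 3 the counts were 8 in Col-0, 4 in p2k1-3, 8 in bdg-8 and 7 in the double mutant. Because the members were chosen with earlier results of these data known, counts beside these shares describe the set and test nothing. Of the JAZ genes left out of the set, JAZ4 and JAZ11 were not called in Col-0 and JAZ13 was called higher. Members not called in any genotype comprised JAZ12 alone, and JAZ9 was called in p2k1-3 only, although its response there did not differ from that in Col-0 by the test of the difference. Tissue markers also moved with ATP. All 3 root hair markers were called lower in p2k1-3 and in the double mutant, 1 in Col-0 and 0 in bdg-8. Of the 3 root endodermis markers 2 were called lower in p2k1-3 and 1 in the double mutant. Of the 6 green tissue markers 1 was called lower in bdg-8 and 2 in the double mutant. Of the 3 shoot epidermis markers 1 was called lower in bdg-8, and in the double mutant 2 were called lower and 1 higher. The part of all these markers in the JAZ values was not tested.

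**Figure D2:**
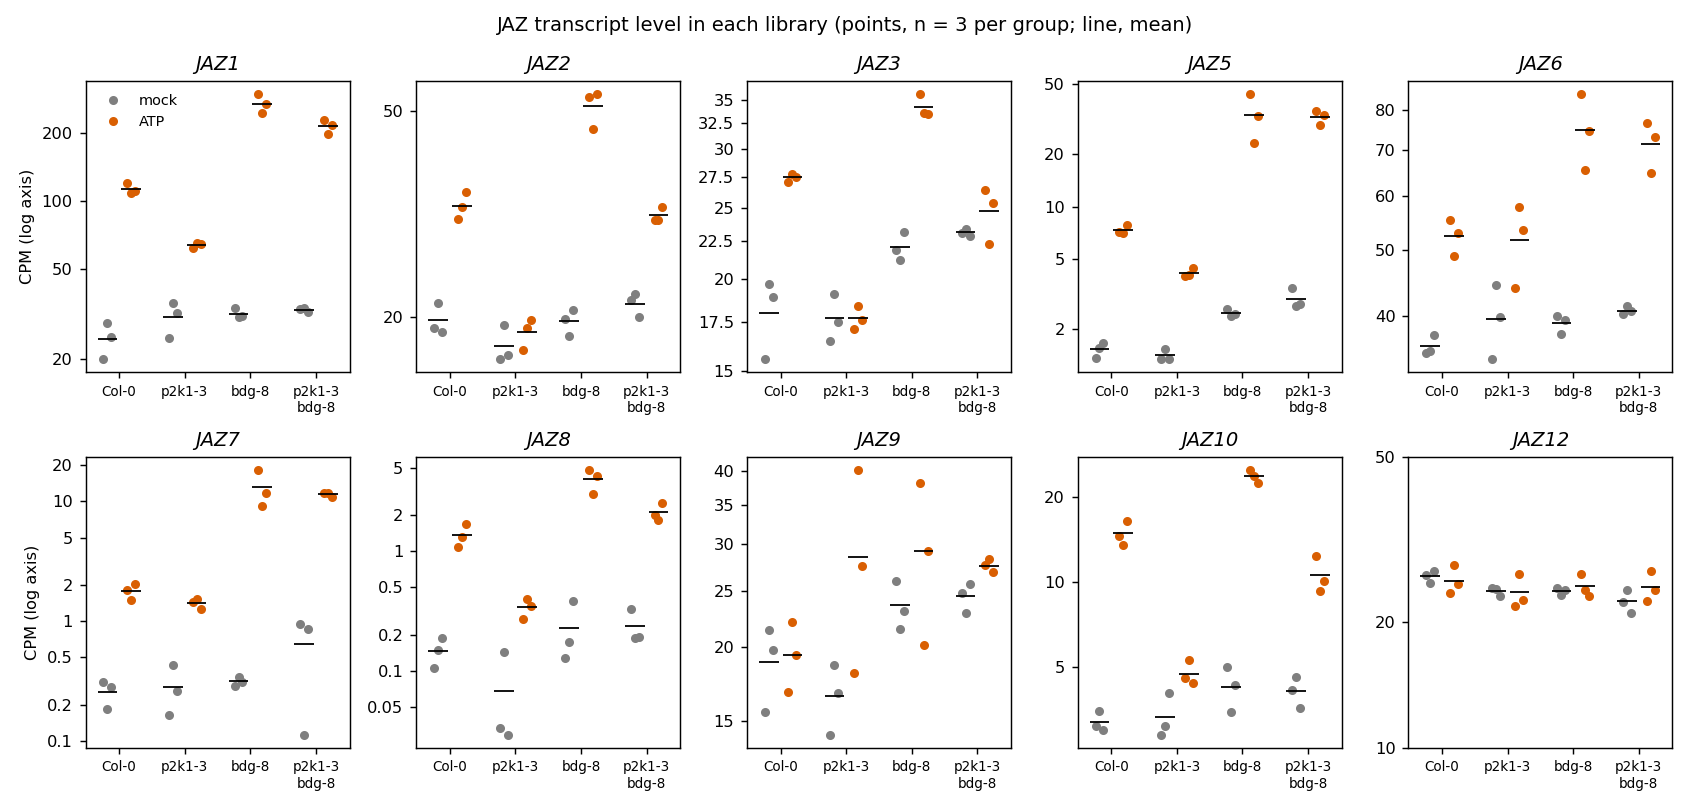
Transcript level in CPM (log axis, scaled separately for each gene) of the 10 JAZ genes in each of the 24 libraries; grey points are mock, orange points ATP, and lines are means of 3 libraries. In Col-0, the ATP libraries of JAZ1 (108 to 120 CPM) lie above all its mock libraries (20.1 to 28.8 CPM), and the JAZ12 libraries of all groups stay between 21.1 and 27.5 CPM.

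JAZ1, one of the first repressors shown to bind COI1 in a hormone-dependent way, carried most of the added transcript. In Col-0 it stood at 20.1, 28.8 and 25.2 CPM in mock and at 120, 108 and 111 with ATP. The p2k1-3 libraries held 24.9, 35.5 and 32.1 CPM in mock and 62.2, 65.5 and 64.8 with ATP. In both genotypes every ATP library was above every mock library, and the ATP libraries of p2k1-3 were all below those of Col-0. In bdg-8 JAZ1 stood at 33.6, 30.7 and 31.1 CPM in mock and at 296, 245 and 267 with ATP, and in the double mutant at 33.5, 33.7 and 32.2 in mock and 229, 198 and 217 with ATP. All 6 of these ATP libraries exceeded the highest Col-0 library, and the double mutant lay below bdg-8 without overlap. The log2 fold change with ATP was 2.20 ± 0.10 (SE) in Col-0 (edgeR adjusted p = 1.6e-14), 1.06 ± 0.10 in p2k1-3 (edgeR adjusted p = 1.9e-08), 3.08 ± 0.10 in bdg-8 (edgeR adjusted p = 6e-18) and 2.7 ± 0.10 in the double mutant (edgeR adjusted p = 8.4e-17). The 4 mock groups had the lowest means, followed by p2k1-3, Col-0, the double mutant and bdg-8 with ATP, and none of the ATP groups overlapped.

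JAZ5 carries an EAR motif and can recruit TOPLESS without NINJA. Its Col-0 libraries held 1.36, 1.55 and 1.66 CPM in mock and 7.12, 7.1 and 7.8 with ATP, and its p2k1-3 libraries 1.35, 1.54 and 1.35 in mock and 4, 4.08 and 4.48 with ATP. In bdg-8 the values were 2.61, 2.36 and 2.44 in mock and 43.8, 23 and 33 with ATP, and in the double mutant 3.44, 2.7 and 2.78 in mock and 35.1, 29.3 and 33.5 with ATP. Mock and ATP libraries did not overlap in any genotype, and both genotypes with bdg-8 reached levels with ATP far above the highest Col-0 library. With ATP, bdg-8 and the double mutant overlapped each other, and bdg-8 replicate 1 was far above replicate 2. The log2 fold change was 2.26 ± 0.22 in Col-0 (edgeR adjusted p = 1.4e-08), 1.57 ± 0.25 in p2k1-3 (edgeR adjusted p = 3e-05), 3.75 ± 0.17 in bdg-8 (edgeR adjusted p = 3.5e-15) and 3.45 ± 0.17 in the double mutant (edgeR adjusted p = 1.2e-14).

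JAZ7 and JAZ8 belong to the group with an EAR motif and a Jas motif that departs from the usual degron, and JAZ8 protein is known to resist jasmonate-triggered degradation. JAZ7 was close to its detection limit in mock, with 3 to 29 counts in the 12 mock libraries. It stood at 0.314, 0.185 and 0.282 CPM in Col-0 mock and 1.84, 1.51 and 2.04 with ATP, and at 0.165, 0.429 and 0.264 in p2k1-3 mock and 1.44, 1.53 and 1.28 with ATP. In bdg-8 it went from 0.29, 0.347 and 0.313 CPM to 18.3, 9.16 and 11.8, and in the double mutant from 0.95, 0.114 and 0.862 to 11.8, 11.8 and 10.8. No mock library reached any ATP library of its genotype, and the lowest ATP library with bdg-8 was above the highest without it. JAZ7 had the highest log2 fold change of any member in bdg-8 (5.36 ± 0.32, edgeR adjusted p = 6.4e-13) and in the double mutant (4.10 ± 0.28, edgeR adjusted p = 1.2e-11), with 2.75 ± 0.46 in Col-0 (edgeR adjusted p = 4.7e-05) and 2.31 ± 0.47 in p2k1-3 (edgeR adjusted p = 0.00067).

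JAZ8 was the scarcest member, with 1 to 11 counts per mock library. It went from 0.105, 0.148 and 0.188 CPM to 1.09, 1.32 and 1.69 with ATP in Col-0, and from 0.033, 0.143 and 0.0293 to 0.274, 0.401 and 0.352 in p2k1-3. In bdg-8 it went from 0.129, 0.174 and 0.383 CPM to 4.8, 3.04 and 4.28, and in the double mutant from 0.328, 0.19 and 0.192 to 2.02, 1.84 and 2.55. The 4 ATP groups did not overlap, in the order p2k1-3, Col-0, double mutant and bdg-8. On the log2 scale the fold change was 3.16 ± 0.37 in Col-0 (edgeR adjusted p = 3.2e-07), 2.32 ± 0.59 in p2k1-3 (edgeR adjusted p = 0.0057), 4.14 ± 0.29 in bdg-8 (edgeR adjusted p = 1.3e-11) and 3.14 ± 0.31 in the double mutant (edgeR adjusted p = 1.1e-08). In p2k1-3 the call was not made without replicate 3 of every group, where the value was 1.91. With the p2k1-3 groups fitted alone, JAZ8 did not pass the filter on low counts and was not tested. The call is thus open to test only because groups of other genotypes carried JAZ8 past the filter.

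JAZ10 makes several splice forms, some of which lack part or all of the Jas motif and are known to be stable in the presence of the hormone, and RefSeq annotates 7 transcripts that the counts do not separate. It stood at 3.11, 3.51 and 3.01 CPM in Col-0 mock and at 14.6, 13.5 and 16.4 with ATP, and at 2.9, 3.11 and 4.05 in p2k1-3 mock and 4.58, 5.32 and 4.39 with ATP. In bdg-8 it went from 5, 3.47 and 4.35 CPM to 24.9, 23.8 and 22.4, and in the double mutant from 4.16, 4.63 and 3.61 to 12.4, 9.32 and 10.1. The 4 ATP groups did not overlap, and the double mutant lay below Col-0, where JAZ1, JAZ5, JAZ7 and JAZ8 had it above Col-0. The log2 fold change was 2.21 ± 0.13 in Col-0 (edgeR adjusted p = 1.4e-12), 0.49 ± 0.15 in p2k1-3 (edgeR adjusted p = 0.022), 2.46 ± 0.12 in bdg-8 (edgeR adjusted p = 1.5e-14) and 1.36 ± 0.13 in the double mutant (edgeR adjusted p = 6.5e-09). The p2k1-3 call was lost on leaving out mock replicate 1 (0.40), mock replicate 2 (0.44) or ATP replicate 2 (0.41) of that genotype, and on leaving out replicate 1 (0.42) or replicate 2 (0.36) of every group. It was kept without replicate 3 of every group (0.72). Of the JAZ10 locus, 71 bases (3.1%) lie under a gene on the opposite strand, and because the strand setting of the counting is not given here, reads from there cannot be assigned.

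JAZ2, which acts in guard cells in the control of stomatal opening, and JAZ3, whose truncation in the jai3-1 mutant gave a dominant insensitivity to jasmonate, rose in Col-0 and bdg-8 and had smaller responses wherever p2k1-3 was present. JAZ2 went from 19, 21.3 and 18.7 CPM to 30.9, 32.6 and 34.9 with ATP in Col-0. In p2k1-3 its libraries held 16.6, 19.3 and 16.9 CPM in mock and 17.3, 19 and 19.7 with ATP, and the groups overlapped. In bdg-8 it went from 19.8, 18.4 and 20.6 CPM to 53.2, 46 and 53.8, above every other group, and in the double mutant from 21.6, 22.1 and 20 to 30.8, 30.8 and 32.6, which overlapped Col-0 with ATP. The log2 fold change of JAZ2 was 0.74 ± 0.07 in Col-0 (edgeR adjusted p = 8.7e-09), 0.09 ± 0.08 in p2k1-3 (edgeR adjusted p = 0.43), 1.38 ± 0.07 in bdg-8 (edgeR adjusted p = 1.9e-14) and 0.56 ± 0.07 in the double mutant (edgeR adjusted p = 4.8e-07).

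JAZ3 was at 15.6, 19.7 and 18.9 CPM in Col-0 mock and at 27.1, 27.8 and 27.5 with ATP, without overlap. In p2k1-3 it was at 16.5, 19.1 and 17.5 CPM in mock and at 17.1, 18.4 and 17.6 with ATP, and these ATP libraries lay within the range of the mock libraries. In bdg-8 it went from 21.9, 21.2 and 23.2 CPM to 35.6, 33.6 and 33.5. In the double mutant it was at 23.1, 23.4 and 22.9 CPM in mock and at 26.4, 22.3 and 25.4 with ATP, which overlap. On the log2 scale the fold change was 0.61 ± 0.07 in Col-0 (edgeR adjusted p = 1.9e-07) and 0.63 ± 0.07 in bdg-8 (edgeR adjusted p = 3e-08), but 0.00 ± 0.07 in p2k1-3 (edgeR adjusted p = 0.99) and 0.09 ± 0.07 in the double mutant (edgeR adjusted p = 0.34).

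JAZ6, a close relative of JAZ5 with an EAR motif, was abundant in mock and rose in all 4 genotypes. It was at 35.3, 35.5 and 37.5 CPM in Col-0 mock and at 55.2, 49 and 52.9 with ATP, and at 34.6, 44.4 and 39.8 in p2k1-3 mock and 44, 57.8 and 53.4 with ATP. In bdg-8 it went from 40, 37.6 and 39.4 CPM to 84.5, 65.4 and 74.7, and in the double mutant from 40.2, 41.4 and 40.6 to 76.8, 64.7 and 73.1. Mock and ATP libraries overlapped in p2k1-3, and with ATP bdg-8 and the double mutant overlapped each other. The log2 fold change was 0.54 ± 0.09 in Col-0 (edgeR adjusted p = 1e-04), 0.39 ± 0.09 in p2k1-3 (edgeR adjusted p = 0.0037), 0.94 ± 0.09 in bdg-8 (edgeR adjusted p = 7.6e-09) and 0.81 ± 0.09 in the double mutant (edgeR adjusted p = 1.1e-07). The p2k1-3 call was not made without replicate 3 of every group (0.37).

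JAZ9, whose protein also binds DELLA repressors of gibberellin signalling, and JAZ12, which the ubiquitin ligase KEG stabilizes, stood apart from the other members. JAZ9 was at 15.5, 21.4 and 19.8 CPM in Col-0 mock and at 16.8, 22.1 and 19.4 with ATP, and at 14.2, 18.7 and 16.7 in p2k1-3 mock and 18.1, 40.2 and 27.6 with ATP. In bdg-8 it was at 26, 21.5 and 23.1 CPM in mock and at 38.2, 20.2 and 29.2 with ATP. In both mutants 1 ATP library was about as low as the mock libraries and another was far higher, so the groups overlapped. In the double mutant it was at 24.8, 22.9 and 25.7 CPM in mock and at 27.7, 28.3 and 26.9 with ATP, all higher. On the log2 scale the fold change was called in p2k1-3 (0.79 ± 0.21, edgeR adjusted p = 0.0069), and that call was lost without ATP replicate 2 of p2k1-3 (0.48) or without replicate 3 of every group (0.83). It was 0.04 ± 0.21 in Col-0 (edgeR adjusted p = 0.93), 0.32 ± 0.20 in bdg-8 (edgeR adjusted p = 0.24) and 0.17 ± 0.20 in the double mutant (edgeR adjusted p = 0.56). The value in bdg-8 was called without ATP replicate 2 of that genotype (0.52) or replicate 2 of every group (0.46), and that in the double mutant with its groups fitted alone (0.19).

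JAZ12 had its lowest and highest libraries at 21.1 CPM (double mutant mock) and 27.5 CPM (Col-0 with ATP), and mock and ATP libraries overlapped in all 4 genotypes. Its log2 fold change with ATP ran from -0.03 ± 0.07 in Col-0 (edgeR adjusted p = 0.81) to 0.12 ± 0.07 in the double mutant (edgeR adjusted p = 0.21). Of its locus, 239 bases (13%) lie under genes on the opposite strand, with the same limit as for JAZ10. The longest identical run that a member shared with another JAZ or TIFY gene in RefSeq transcripts was 23 bases.

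**Figure D3:**
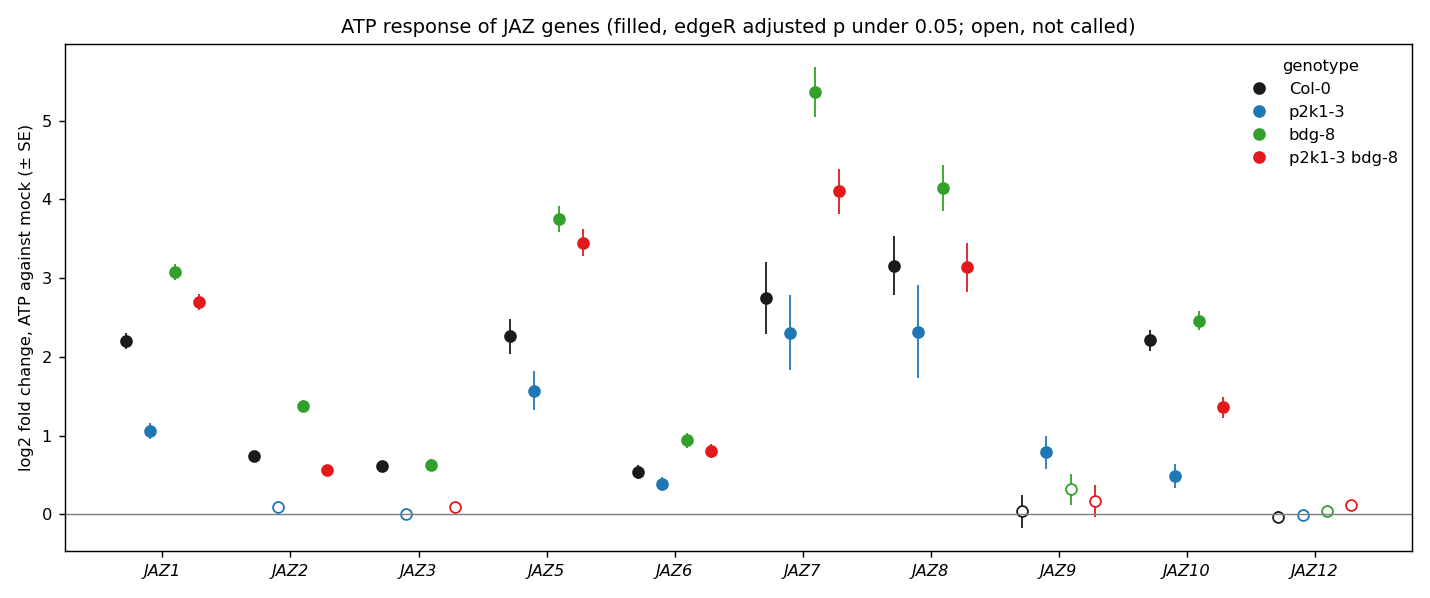
Log2 fold change of ATP against mock (± SE) for the 10 JAZ genes in Col-0, p2k1-3, bdg-8 and the double mutant; filled points passed the edgeR adjusted p under 0.05. JAZ7 in bdg-8 is the highest point (5.36), bdg-8 is the highest of the 4 genotypes for every member called in Col-0, and the JAZ12 points lie between -0.03 and 0.12.

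The difference between ATP responses was tested with an interaction term. The response of 4 members, JAZ1, JAZ2, JAZ3 and JAZ10, was lower in p2k1-3 than in Col-0, and that of none was higher (4.48% of all genes called in either direction, 3.8% lower). The difference of log2 fold changes was -1.72 ± 0.21 for JAZ10 (edgeR adjusted p = 6.9e-06), -1.14 ± 0.15 for JAZ1 (edgeR adjusted p = 1.7e-05), -0.65 ± 0.10 for JAZ2 (edgeR adjusted p = 0.00026) and -0.60 ± 0.10 for JAZ3 (edgeR adjusted p = 0.00041). Values for JAZ5 (-0.69 ± 0.36, edgeR adjusted p = 0.35), JAZ7 (-0.44 ± 0.76) and JAZ8 (-0.84 ± 0.91) had the same sign and were not called, although JAZ5 was called at the same value when the 4 compared groups were fitted alone, and JAZ6 had -0.15 ± 0.13. JAZ9 had 0.75 ± 0.30 (edgeR adjusted p = 0.19), which was called at 0.99 without ATP replicate 1 of p2k1-3 and at 0.92 without replicate 1 of every group. The median over the 10 members was -0.63, and over all tested genes 0.00. With replicate 3 left out, the count was 3, with JAZ3 (-0.64) no longer called.

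In the background of bdg-8, the responses of 3 members, JAZ2, JAZ3 and JAZ10, were lower in the double mutant than in bdg-8, and again none was higher (0.638% of all genes called, 0.486% lower). The difference was -1.10 ± 0.19 for JAZ10 (edgeR adjusted p = 0.0042), -0.82 ± 0.10 for JAZ2 (edgeR adjusted p = 0.00013) and -0.54 ± 0.10 for JAZ3 (edgeR adjusted p = 0.0082). JAZ1 had -0.39 ± 0.14 (edgeR adjusted p = 0.26), JAZ7 -1.26 ± 0.57 (edgeR adjusted p = 0.42), JAZ8 -1.0 ± 0.54 (edgeR adjusted p = 0.54) and JAZ5 -0.30 ± 0.27 (edgeR adjusted p = 0.77). Without replicate 1 of every group JAZ1 was called at the same value of -0.39, and without replicate 2 of every group the JAZ10 call was lost (-0.80). The members' median was -0.46, and that of all tested genes -0.01. Without replicate 3 none of the 3 was called, while their values were -1.21, -0.88 and -0.62, and only 2 of all genes tested were called in that setting.

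The response of 4 members, JAZ1, JAZ2, JAZ5 and JAZ7, was higher in bdg-8 than in Col-0, and that of none was lower (7.91% of all genes called in either direction, 5.76% higher). The difference of log2 fold changes was 2.61 ± 0.77 for JAZ7 (edgeR adjusted p = 0.035), 1.5 ± 0.32 for JAZ5 (edgeR adjusted p = 0.0029), 0.89 ± 0.14 for JAZ1 (edgeR adjusted p = 0.00015) and 0.64 ± 0.10 for JAZ2 (edgeR adjusted p = 8.8e-05). JAZ6 (0.41 ± 0.13, edgeR adjusted p = 0.063), JAZ8 (0.98 ± 0.62, edgeR adjusted p = 0.46) and JAZ10 (0.25 ± 0.19, edgeR adjusted p = 0.56) were not called, and JAZ3 stood at 0.03 ± 0.10. The JAZ7 call was lost on leaving out any single mock library of either genotype or ATP replicate 2 of Col-0, with values from 2.47 to 2.79, and without replicate 1 of every group (2.1). JAZ6 was called in 6 of its 20 alternatives, at 0.40 with no filter on low counts, 0.42 with DESeq2, 0.40 with the compared groups alone, 0.39 without replicate 1 and 0.44 without replicate 2 of every group, and 0.50 without ATP replicate 2 of bdg-8. Without replicate 3 the count was 1, JAZ2 (0.72), with JAZ1 at 0.85, JAZ5 at 1.46 and JAZ7 at 2.7.

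The response of 5 members, JAZ1, JAZ2, JAZ5, JAZ6 and JAZ10, was higher in the double mutant than in p2k1-3, and that of none was lower (16.2% of all genes called, 9.85% higher and 6.38% lower). The difference between the double mutant and p2k1-3 was 1.88 ± 0.33 for JAZ5 (edgeR adjusted p = 0.00017), 1.64 ± 0.14 for JAZ1 (edgeR adjusted p = 8.5e-09), 0.87 ± 0.20 for JAZ10 (edgeR adjusted p = 0.0035), 0.47 ± 0.10 for JAZ2 (edgeR adjusted p = 0.0019) and 0.42 ± 0.13 for JAZ6 (edgeR adjusted p = 0.028). JAZ7 had 1.79 ± 0.68 (edgeR adjusted p = 0.078) and was called at 1.80 with DESeq2, at 2.40 without replicate 1 of every group, at 2.15 without mock replicate 1 of the double mutant and at 1.82 with the replicate number as a block (edgeR adjusted p = 0.048; 0.0033 to 0.32 over its alternatives). JAZ3 had 0.09 ± 0.10 (edgeR adjusted p = 0.61), and JAZ9 had -0.62 ± 0.29 (edgeR adjusted p = 0.16), called at -0.86 without ATP replicate 1 of p2k1-3 and at -0.76 without replicate 1 of every group. The JAZ6 call was lost on leaving out any of 7 of its 12 libraries, with values from 0.32 to 0.42. Those libraries were p2k1-3 mock replicates 2 and 3, p2k1-3 ATP replicate 1, and replicates 1 and 3 of the double mutant in mock and with ATP. With replicate 3 left out, the count was 3, JAZ1 (1.58), JAZ2 (0.47) and JAZ5 (1.9), with JAZ10 at 0.58 and JAZ6 at 0.43.

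Whether the effect of p2k1-3 on the response differed between the bdg-8 and Col-0 backgrounds was tested by the interaction of both mutations with ATP, a comparison added after the data had been seen. No member was called (1.31% of all genes called), 3 had an unadjusted p under 0.05, and DESeq2 called 1. JAZ1 had 0.75 ± 0.20 (edgeR adjusted p = 0.069), which was called in 7 of its 31 alternatives, among them leaving out mock replicate 2 of Col-0 (0.87), mock replicate 1 of p2k1-3 (0.88) or ATP replicate 1 of bdg-8 (0.82). JAZ10 had 0.61 ± 0.28 (edgeR adjusted p = 0.38), which was called at 1.18 without replicate 2 of every group and stood at 0.16 without replicate 3, and JAZ9 had -0.89 ± 0.41 (edgeR adjusted p = 0.39). The p2k1-3 effect on JAZ1, called against Col-0 and not in the bdg-8 background, was thus not shown to differ between them.

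**Figure D4:**
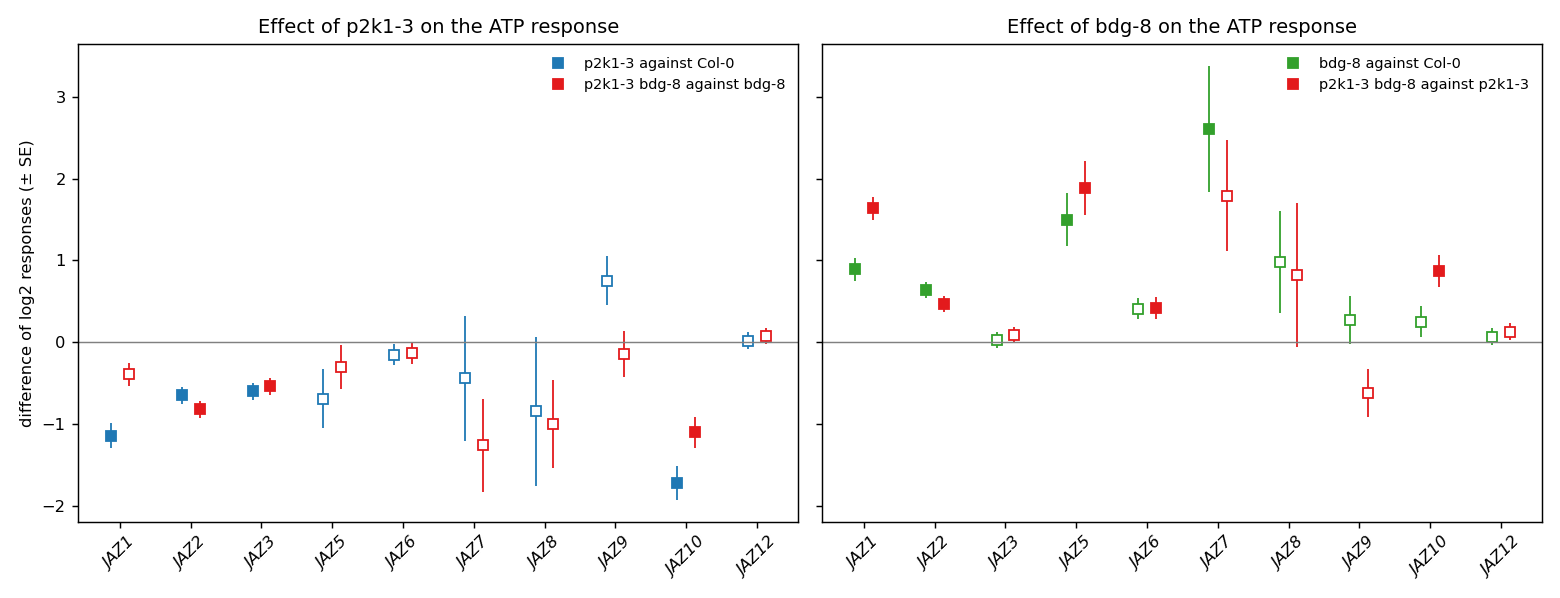
Difference between ATP responses (log2, ± SE) for the 10 JAZ genes, with the effect of p2k1-3 on the left (blue, against Col-0; red, in the bdg-8 background) and of bdg-8 on the right (green, against Col-0; red, in the p2k1-3 background); filled squares passed the edgeR adjusted p under 0.05. On the left JAZ2, JAZ3 and JAZ10 are called below 0 in both backgrounds, and on the right JAZ1, JAZ2 and JAZ5 are called above 0 in both.

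Without ATP, 4 of the 10 members were called higher in bdg-8 than in Col-0, near the share of all genes called in either direction. None was called in p2k1-3 against Col-0. Called higher in bdg-8 were JAZ3 (0.29 ± 0.07, edgeR adjusted p = 0.0026), JAZ1 (0.37 ± 0.11, edgeR adjusted p = 0.011), JAZ10 (0.42 ± 0.16, edgeR adjusted p = 0.038) and JAZ5 (0.69 ± 0.27, edgeR adjusted p = 0.049), while 36.5% of all genes were called in either direction and 18% as higher. The bdg-8 libraries of JAZ1, JAZ3 and JAZ5 all exceeded those of Col-0, and those of JAZ10 overlapped. Members that were not called separated too, JAZ6 and JAZ9 with all bdg-8 libraries higher and JAZ12 with all lower. The share of all genes that separate in this way was not computed, for this or any other comparison. The JAZ5 call was lost on leaving out any 1 of the 6 libraries (0.62 to 0.76), the JAZ10 call without replicate 1 or 3 of either genotype (0.30 to 0.41), and the JAZ1 call without replicate 1 of Col-0 (0.24). Without replicate 1 of every group the JAZ5 (0.57) and JAZ10 (0.27) calls were lost, and JAZ9 (0.32 ± 0.20, edgeR adjusted p = 0.24) was called without replicate 2 of every group (0.48) and with the compared groups alone (0.32). Without replicate 3 of every group none of the 4 was called, with values of 0.29, 0.40, 0.36 and 0.77. In mock seedlings of bdg-8 all 6 green tissue markers were called lower, their summed level running from 27300 to 36600 CPM against 42000 to 45900 in Col-0, and so were all 3 shoot epidermis markers, with sums of 427 to 478 against 564 to 601 CPM. Of the 3 root hair markers 1 was called higher. The part of these markers in the JAZ values was not tested, and in whole seedlings fewer cells of a type and less RNA per cell cannot be told apart.

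The same comparison on the p2k1-3 background, double mutant against p2k1-3 in mock, called 5 members higher and none lower (31.2% of all genes called, 15.1% higher). They were JAZ3 (0.39 ± 0.07, edgeR adjusted p = 2e-04), JAZ5 (1.08 ± 0.26, edgeR adjusted p = 0.003), JAZ2 (0.27 ± 0.07, edgeR adjusted p = 0.0069), JAZ8 (1.81 ± 0.64, edgeR adjusted p = 0.035) and JAZ9 (0.57 ± 0.21, edgeR adjusted p = 0.041), and all libraries of the double mutant were higher for each. Without replicate 3 the count was 1, JAZ3 (0.39). The JAZ8 call, which rests on 1, 4 and 1 counts in p2k1-3, was also lost without mock replicate 1 or 3 of p2k1-3 or mock replicate 1 of the double mutant (1.43 to 1.51), and without replicate 1 of every group (1.2). With the compared groups alone, JAZ8 did not pass the filter on low counts and was not tested. The JAZ2 call was also lost without replicate 1 of every group (0.22). The JAZ9 call was lost without mock replicate 1 or 3 of p2k1-3 or any mock replicate of the double mutant (0.48 to 0.62), and with DESeq2 (0.57). JAZ7 (1.23 ± 0.55, edgeR adjusted p = 0.094) was called at 1.22 by DESeq2, at 2.04 without replicate 2 of every group and at 1.67 without mock replicate 2 of the double mutant. Here 5 of the 6 green tissue markers and 2 of the 3 shoot epidermis markers were called lower. Of the 3 root endodermis markers 1 was called lower, and of the 3 root hair markers 1 was called higher. The part of these markers in the JAZ values was not tested.

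The p2k1-3 mutation gave no call among the members in mock seedlings. In p2k1-3 against Col-0 the 10 values ran from -1.14 (JAZ8) to 0.32 (JAZ1), with 0 members called by edgeR and 0 by DESeq2, 2 at an unadjusted p under 0.05 (5.29% of all genes called, 3.41% higher and 1.89% lower). JAZ1 (0.32 ± 0.11, edgeR adjusted p = 0.094) was called without mock replicate 2 of Col-0 (0.44) or mock replicate 1 of p2k1-3 (0.45), and without replicate 1 of every group (0.33). In the double mutant against bdg-8 the values ran from -0.09 to 1.06, with 0 members called by edgeR and by DESeq2 and 0 at an unadjusted p under 0.05 (0.667% of all genes called). For the interaction of the mutations in mock, edgeR and DESeq2 called 0 members and 1 had an unadjusted p under 0.05 (1.98% of all genes called).

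Set side by side with ATP, the genotypes differed more. In p2k1-3 against Col-0, 6 members were lower and none higher (6.67% of all genes called, 5.13% lower). These were JAZ8 (-1.98 ± 0.31, edgeR adjusted p = 0.00018), JAZ10 (-1.64 ± 0.12, edgeR adjusted p = 4.4e-09), JAZ1 (-0.82 ± 0.10, edgeR adjusted p = 3.7e-06), JAZ2 (-0.81 ± 0.07, edgeR adjusted p = 6.4e-08), JAZ5 (-0.80 ± 0.18, edgeR adjusted p = 0.0068) and JAZ3 (-0.63 ± 0.07, edgeR adjusted p = 1.3e-06), each with all p2k1-3 libraries below all Col-0 libraries. How large a share of all genes separates like this was not computed. JAZ6 (-0.02 ± 0.09) and JAZ7 (-0.34 ± 0.32) were not called, and JAZ9 (0.55 ± 0.20, edgeR adjusted p = 0.12) was called at 0.80 without ATP replicate 1 of p2k1-3 and at 0.70 without replicate 1 of every group. With replicate 3 left out, the count was 5, JAZ5 (-0.81) being lost. Of the 3 root endodermis markers 1 was called lower in p2k1-3, with sums of 17.4 to 18 CPM against 20.9 to 22.2 in Col-0. No green tissue, root hair or shoot epidermis marker was called. The part of these markers in the JAZ values was not tested.

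In bdg-8 against Col-0 with ATP, 9 members were higher and none lower, JAZ12 being the exception at -0.05 ± 0.07 (45.8% of all genes called, 24.5% higher). The values were 2.88 ± 0.23 for JAZ7 (edgeR adjusted p = 8.4e-10), 2.19 ± 0.15 for JAZ5 (edgeR adjusted p = 2.9e-11), 1.58 ± 0.21 for JAZ8 (edgeR adjusted p = 1.4e-06) and 1.25 ± 0.09 for JAZ1 (edgeR adjusted p = 1.9e-10). They were smaller for JAZ10 (0.68 ± 0.10, edgeR adjusted p = 1.3e-05), JAZ2 (0.64 ± 0.07, edgeR adjusted p = 3.5e-08), JAZ9 (0.60 ± 0.20, edgeR adjusted p = 0.02), JAZ6 (0.52 ± 0.09, edgeR adjusted p = 5.8e-05) and JAZ3 (0.32 ± 0.07, edgeR adjusted p = 0.00037). All libraries were higher for each but JAZ9, and the share of all genes that separate so was not computed. The JAZ9 call was lost without ATP replicate 1 of Col-0 (0.50) or of bdg-8 (0.36) or without replicate 1 of every group (0.25). Without replicate 3 the count was 8, with JAZ9 at 0.60. All 6 green tissue markers were called lower in bdg-8, with sums of 32500 to 35600 CPM against 42800 to 50400 in Col-0, and so were all 3 shoot epidermis markers, with sums of 410 to 428 against 549 to 620 CPM. Of the 3 root hair markers 1 was called higher. The part of these markers in the JAZ values was not tested.

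Against bdg-8 with ATP, the double mutant was lower in 5 members and higher in none (6.66% of all genes called, 4.58% lower and 2.08% higher), each with no overlap. They were JAZ10 (-1.16 ± 0.11, edgeR adjusted p = 1.9e-07), JAZ8 (-0.93 ± 0.19, edgeR adjusted p = 0.0044), JAZ2 (-0.70 ± 0.07, edgeR adjusted p = 2.3e-07), JAZ3 (-0.47 ± 0.07, edgeR adjusted p = 7.7e-05) and JAZ1 (-0.33 ± 0.09, edgeR adjusted p = 0.031). The share of all genes without overlap was not computed. JAZ5 (-0.04 ± 0.13), JAZ6 (-0.07 ± 0.09) and JAZ7 (-0.20 ± 0.19) were not called. The JAZ1 call was lost without ATP replicate 1 (-0.26) or 3 (-0.34) of bdg-8 or ATP replicate 2 (-0.28) or 3 (-0.34) of the double mutant. With replicate 3 left out, the count was 2, JAZ2 (-0.69) and JAZ10 (-1.17). Root markers were lower too. Of the 3 root endodermis markers 2 were called lower, with sums of 14.9 to 17.1 CPM in the double mutant against 21.8 to 26 in bdg-8, and of the 3 root hair markers 1 was, with sums of 21.5 to 26.5 against 29 to 33.5 CPM. None of the 6 green tissue markers was called in this comparison, and of the 3 shoot epidermis markers 1 was called higher. The part of these markers in the lower JAZ values was not tested.

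Against p2k1-3 with ATP, the double mutant was higher in 8 members and lower in none, from 0.47 ± 0.09 for JAZ6 to 3.02 ± 0.25 for JAZ7 (53.9% of all genes called, 28.8% higher), and the count was 8 without replicate 3. All 6 green tissue markers were called lower in the double mutant, with a median log2 difference of -0.75 and sums of 27600 to 31600 CPM against 44600 to 45600 in p2k1-3. All 3 shoot epidermis markers were also called lower, with sums of 447 to 478 against 600 to 606 CPM, and 1 of the 3 root endodermis markers was. Their part in the JAZ values was not tested.

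The JAZ genes outside the 10 members moved little or were near 0. JAZ4 ran from 5.77 to 9.7 CPM and JAZ11 from 6.2 to 8.52 CPM over the 24 libraries, and in Col-0 their log2 fold changes with ATP were -0.11 ± 0.11 and -0.16 ± 0.10 (edgeR adjusted p = 0.55 and 0.33). JAZ4 fell in bdg-8 (-0.32 ± 0.11, edgeR adjusted p = 0.02). JAZ13, another member with an EAR motif, had 1, 3 and 1 counts in Col-0 mock and 13, 7 and 10 with ATP, a called rise of 2.42 ± 0.84 (edgeR adjusted p = 0.041) that rests on these few reads. Without replicate 3 of any group, neither this rise nor the JAZ4 fall in bdg-8 was called.

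The rest of the jasmonate pathway was read from lists of its parts. The shares of all tested genes called higher and lower with ATP, against which each list is to be read, were 13.2% and 8.67% in Col-0, 11.9% and 8.53% in p2k1-3, 18.7% and 17.7% in bdg-8 and 17.1% and 16.5% in the double mutant. With ATP in Col-0, 9 of the 15 synthesis genes rose and 1 fell, with 8 and 1 in p2k1-3, 9 and 1 in bdg-8 and 8 and 3 in the double mutant. Without replicate 3 the number called in either direction went from 10 to 7, 9 to 4, 10 to 8 and 11 to 8 in these genotypes. The median log2 fold change of the list was 0.26, 0.17, 0.13 and 0.16. LOX4, a plastid lipoxygenase at the entry of the pathway, rose by 4.24 ± 0.17 on the log2 scale in Col-0 (edgeR adjusted p = 8e-16), by 2.66 ± 0.16 in p2k1-3, by 4.88 ± 0.15 in bdg-8 and by 4.71 ± 0.15 in the double mutant. LOX3, a second such enzyme, rose by 1.39 ± 0.12, 0.51 ± 0.13, 2.81 ± 0.11 and 2.59 ± 0.11 in the same order, and its response, like that of JAZ1, was lower in p2k1-3 (-0.87 ± 0.18, edgeR adjusted p = 0.0037) and higher in bdg-8 (1.43 ± 0.17, edgeR adjusted p = 2.6e-06) than in Col-0. Leaving out replicate 3 of every group, the synthesis genes called for these differences went from 5 to 2 and from 3 to 1. The allene oxide cyclase AOC3 and OPCL1, which activates the precursor for beta-oxidation, rose in all 4 genotypes, by 2.36 ± 0.10 and 1.77 ± 0.08 in Col-0. LOX2 was not called in any, and JAR1, which conjugates jasmonate to isoleucine, fell slightly in all 4 (-0.11 ± 0.03 in Col-0, edgeR adjusted p = 0.017).

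Of the 13 tested genes of the receptor, the repressor complex and the transcription factors, 1 rose and 2 fell in Col-0, 1 and 4 in p2k1-3, 3 and 3 in bdg-8 and 2 and 3 in the double mutant. The list holds few calls, and its share of rises lay near that of all genes. Its falls were also few and near the share of all genes in Col-0 (2 of 13, against 8.67%). The same held in bdg-8 and the double mutant (3 of 13 in each, against 17.7% and 16.5%). In p2k1-3 the share of falls was further above that of all genes (4 of 13, against 8.53%). With replicate 3 left out, the number called went from 3 to 3, 5 to 3, 6 to 4 and 5 to 4. COI1, the receptor, fell in all 4 (-0.30 ± 0.05 in Col-0, edgeR adjusted p = 5.1e-05), as did MYC4, a target of JAZ repression (-0.71 ± 0.07 in Col-0 and -1.19 ± 0.07 in bdg-8). JAM1, a repressor that competes with MYC factors, rose in all 4, by 0.72 ± 0.06 in Col-0 and 1.47 ± 0.06 in bdg-8. NINJA, TPL and MYC3 were not called in any genotype. MYC2, the main partner of JAZ proteins, is listed at 0 in all 24 libraries. In TAIR10.1, 98.5% of its locus lies under a gene on the opposite strand, which had 26 to 52 counts, so MYC2 was not measured here and the cause was not tested.

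Among 10 genes of jasmonate turnover, 2 rose and none fell with ATP in Col-0, against 2 and 1 in p2k1-3, 6 and 1 in bdg-8 and 7 and 0 in the double mutant. Leaving out replicate 3, the number called went from 2 to 2, 3 to 1, 7 to 4 and 7 to 5. CYP94C1, which oxidizes the active hormone, rose by 3.35 ± 0.16 in Col-0 (edgeR adjusted p = 1.2e-14), by 2.38 ± 0.15 in p2k1-3, by 4.83 ± 0.14 in bdg-8 and by 4.59 ± 0.13 in the double mutant. Its response was lower in p2k1-3 (-0.97 ± 0.25, edgeR adjusted p = 0.021) and higher in bdg-8 (1.47 ± 0.25, edgeR adjusted p = 0.00028) than in Col-0, the same directions as the called differences of JAZ1 and JAZ2. Without replicate 3 of any group, the turnover genes called for these differences went from 2 to 0 and from 1 to 1. The CYP94C1 difference in p2k1-3 was thus not called in that setting. Late jasmonate output genes showed no common direction, with 1 up and 1 down of 7 tested in Col-0, 1 and 1 in p2k1-3, 1 and 2 in bdg-8 and 3 and 2 in the double mutant, and 1, 0, 2 and 2 called in either direction without replicate 3. TAT3, an aminotransferase induced by jasmonate, rose by 3.99 ± 0.44 in Col-0 (edgeR adjusted p = 1e-07), from 0.977, 1.07 and 0.721 CPM to 17, 12.3 and 14.6, and was already at 18.8, 13.8 and 15.8 CPM in bdg-8 mock.

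**Figure D5:**
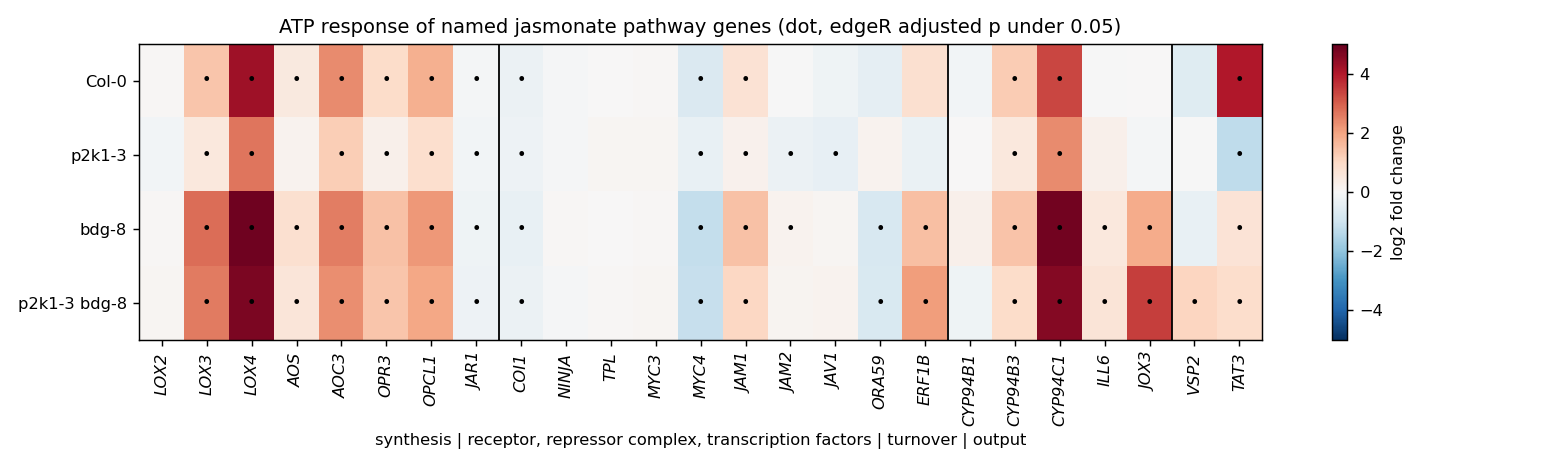
Log2 fold change of ATP against mock (colour scale) for 25 named genes of jasmonate synthesis, signalling, turnover and output in the 4 genotypes; dots mark edgeR adjusted p under 0.05. LOX4 and CYP94C1 are red in all 4 genotypes (4.24 and 3.35 in Col-0), and MYC4 and COI1 are blue in all 4.

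The genes with the most similar pattern to each member were sought by Pearson correlation of mean log2 CPM over the 8 groups, which share treatment and libraries, so the values describe and do not test likeness. JAZ1 was most like GAUT15 (r = 0.999) and AT5G26030 (0.999), JAZ7 like AT4G30350 (0.998) and DAR6 (0.997), and JAZ2 and JAZ10 both had PROPEP4 as their closest gene (0.976 and 0.993). Among the members, JAZ6 and JAZ7 (0.995) and JAZ5 and JAZ7 (0.989) were the closest pairs over the 8 groups, JAZ2 was closest to JAZ10 (0.97), and JAZ12 had its highest value with JAZ2 (0.279).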

How the data were processed

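Polyadenylated RNA of seedlings was sequenced in 24 libraries, 3 in each of 8 groups set by genotype and treatment in the labels. The authors deposited raw read counts per gene for each library. The authors used cutadapt 1.13, STAR 2.7.4a, HTSeq 0.13.5 and MultiQC 1.9 per the submitters' processing notes, which name them without settings; the genome build, annotation and strand setting are not given in the sources used here. HTSeq summary entries, 7.6% to 12.17% of a library with 4.03% to 4.4% ambiguous reads among them, were left out, which left 25856588 to 35239775 counts per library.

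From these counts, genes were kept by filterByExpr (minimum count 10, minimum total 15), scaled by TMM (factors 0.954 to 1.07) and tested with edgeR 4.0.16 (limma 3.58.1, R 4.3.3) by the quasi-likelihood test. The model held 1 mean per group over 24 libraries (16 residual degrees of freedom). Its median BCV, the relative SD between replicates beyond counting noise, was 0.054. P-values were adjusted by Benjamini-Hochberg over 20995 genes in each of 18 comparisons, 17 planned and 1 added after the data had been seen, and a call is an adjusted p under 0.05. The SE is the log2 fold change divided by the square root of the F statistic. Levels are CPM, and log2 CPM used a prior count of 2. Overlap of libraries was described for listed genes only, without its share over all genes. The procedure was tested on simulated data. All simulated libraries were drawn independently, so that test does not bear on whether replicate 3 is an independent sample.

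Alternatives were no filter, RLE size factors, DESeq2 1.42.0, the compared groups alone, the replicate number as a block, and leaving out each replicate number or library. Names were taken from RefSeq for 33056 of 33245 identifiers. The members and lists were chosen with earlier results of these data known. The rule for named genes was all members, the targeted genes, the remaining JAZ genes, named jasmonate pathway genes, and for each member the 2 most similar genes above a floor of 1 in mean log2 CPM, of which the text gives a part. The upstream window of 1 member is not reported here.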

Additional observations from a re-analysis of the deposited data

Results flagged for a closer look

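The ATP response of some JAZ genes differed between genotypes by the test of the difference itself (the interaction term, edgeR adjusted p under 0.05), and these differences of log2 fold changes are gathered here. In p2k1-3 against Col-0 they were -1.14 for JAZ1, -0.65 for JAZ2, -0.60 for JAZ3 and -1.72 for JAZ10. In the double mutant against bdg-8 they were -0.82 for JAZ2, -0.54 for JAZ3 and -1.10 for JAZ10. In bdg-8 against Col-0 they were 0.89 for JAZ1, 0.64 for JAZ2, 1.5 for JAZ5 and 2.61 for JAZ7. In the double mutant against p2k1-3 they were 1.64 for JAZ1, 0.47 for JAZ2, 1.88 for JAZ5, 0.42 for JAZ6 and 0.87 for JAZ10. JAZ2 is the one member in all 4 comparisons, while the comparisons share groups and so are not independent. Without replicate 3 of every group, 3, 0, 1 and 3 members were called in these comparisons, in the order given here. JAZ2 was then not called in the double mutant against bdg-8. The JAZ7 difference was called in 11 of its 20 alternatives.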

How the results depend on the processing

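None of the member values called with all libraries changed sign in any alternative run. Over the 180 values of members in 18 comparisons, the call was kept or not made as before in 180 with RLE size factors, 179 with the replicate block, 178 with no filter, 175 with DESeq2 and 155 without replicate 3, where 25 calls were lost. The interaction of both mutations with ATP, with no member called, had 1 called with no filter and 1 with DESeq2 (JAZ1 in both), and the fit on the compared groups alone was not run for it because it uses all 8 groups. Leaving out a replicate number or a library, the count of members called with ATP against mock ran from 8 to 8 in Col-0, 4 to 7 in p2k1-3, 8 to 9 in bdg-8, 7 to 7 in the double mutant. In mock it ran from 0 to 1 for p2k1-3 against Col-0, 0 to 5 for bdg-8 against Col-0, 0 to 0 for the double mutant against bdg-8, 1 to 6 for the double mutant against p2k1-3. With ATP it ran from 5 to 7 for p2k1-3 against Col-0, 8 to 9 for bdg-8 against Col-0, 2 to 5 for the double mutant against bdg-8, 8 to 8 for the double mutant against p2k1-3. For differences of ATP responses it ran from 3 to 5 for p2k1-3 against Col-0, 1 to 5 for bdg-8 against Col-0, 0 to 4 for the double mutant against bdg-8, 3 to 7 for the double mutant against p2k1-3, from 0 to 0 for the interaction of the mutations in mock and from 0 to 2 for that with ATP. The lowest counts mostly came without replicate 3, and the cause was not tested. With the replicate number as a block, the response of the double mutant against p2k1-3 had 6 members called in place of 5 (JAZ7 added), and no other member call changed. The numbers are not shown to pair the libraries: 16 of 84 correlations between same-numbered deviations were over 0.1 (from -0.136 to 0.246), in 0 comparisons were all over 0.1, and 20 of 24 libraries correlated best with their own number, a hint from the data and not the design.

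Over all genes, the count called without replicate 3 was less than the main count by over 1.5 times in all 18 comparisons except the double mutant against p2k1-3 with ATP (11323 and 7844). With all libraries and without replicate 3, it was 4585 and 2494 for ATP in Col-0, 4287 and 1883 for ATP in p2k1-3, 7631 and 4852 for ATP in bdg-8, 7070 and 4269 for ATP in the double mutant. In mock it was 1111 and 85 for p2k1-3 against Col-0, 7662 and 3170 for bdg-8 against Col-0, 140 and 6 for the double mutant against bdg-8, 6555 and 2161 for the double mutant against p2k1-3. With ATP it was 1400 and 185 for p2k1-3 against Col-0, 9626 and 5636 for bdg-8 against Col-0, 1398 and 76 for the double mutant against bdg-8. For responses it was 940 and 149 for p2k1-3 against Col-0, 1660 and 458 for bdg-8 against Col-0, 134 and 2 for the double mutant against bdg-8, 3406 and 1267 for the double mutant against p2k1-3, with 416 and 2 for the interaction in mock and 276 and 0 for that with ATP. Leaving out replicate 1 or 2 of every group moved the count by over 1.5 times in p2k1-3 against Col-0 in mock (2135 and 583), in the double mutant against bdg-8 in mock (212 and 302), in their response difference (413 without replicate 1) and in the interaction with ATP (427 without replicate 2). Leaving out 1 library moved it by over 1.5 times for 4 libraries in p2k1-3 against Col-0 in mock (492 to 660) and 2 with ATP (905 and 928). It did so for 5 libraries in the double mutant against bdg-8 in mock (40 to 215), 3 with ATP (725 to 886) and 4 in their response difference (67 to 86), and for 5 in the interaction in mock (250 to 275). The double mutant against bdg-8 in mock (140 genes) also had 273 with the block, 217 with DESeq2 and 57 in the groups alone, and their response difference (134 genes) had 223 with DESeq2. Depth limits JAZ7 and JAZ8, whose mock libraries held 1 to 29 counts. With the compared groups alone, JAZ8 did not pass the filter in any comparison of mock groups, nor for ATP in p2k1-3. JAZ7 did not pass it in p2k1-3 or in bdg-8 against Col-0 in mock. In the main fit these values were tested only because other groups carried the genes past the filter.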
